A study of Mus musculus with 35 samples.

Results

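The genes described here are 10 genes tied to phagocytosis and to the receptor TREM2 in microglia: Trem2, Tyrobp, Spp1, Gpnmb, Axl, Mertk, Gas6, Cd68, Lpl and Itgax. They were chosen by name, matched to Ensembl identifiers, and all 10 were found among the 53465 genes of the bulk table. They were followed in 12 bulk RNA-seq libraries of neural, mural, endothelial and microglial cells sorted from mouse brain at E14.5, with 3 libraries per population. Their titles (Mi-340, Mi-343 and Mi-346 for microglia) share the same numbers across populations, and values are given in that order, as the first, the second and the third library. The same genes were read in single wells of 3 plates sorted through 4 gates and in 3 plates labelled Mof Knockout, of which plate 5 held the microglia-like cells. Bulk libraries and the 4-gate plates carry no genotype label and are taken as the wild-type arm that the series design names. How Mof was removed, the deleted part of Mof (gene symbol Kat8) and the sort gates of the knockout wells are not given in the sources used here.

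Each gate defines what a population is. Neural wells were negative for every sort marker, mural wells were PDGFRβ high and PECAM1 low, endothelial wells were PECAM1 and CD102 high, and microglia-gate wells were listed as CD41 positive with medium CD45. The methods give CD45 and CD11b for sorting microglia in bulk. The gate markers Ptprc (CD45) and Itgam (CD11b) are therefore no findings in microglia, whereas no member was a sort marker. RNA of the neural libraries came from another extraction and library kit than RNA of the other 3 populations, so kit and population cannot be told apart in any comparison with neural cells. The methods give 3 brains for the bulk libraries, and the labels do not say which library came from which brain, so p-values measure the spread between these libraries.

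Microglia are the resident macrophages of the brain, and in the embryo they clear dying cells and trim processes of young neurons. TREM2 is a surface receptor for lipids and apoptotic cells, and it signals through the adaptor TYROBP, also called DAP12. AXL and MERTK are receptor tyrosine kinases of the TAM family, and the secreted protein GAS6 bridges them to phosphatidylserine on dying cells. CD68 is a lysosomal glycoprotein of phagocytes, LPL is a lipase that splits triglycerides, ITGAX (CD11c) is a β2-integrin subunit, SPP1 (osteopontin) is a secreted phosphoprotein, and GPNMB is a transmembrane glycoprotein of lysosomes and melanosomes. Several of these genes are also known for microglia near developing axon tracts and for microglia that respond to disease.

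All 10 genes lie on separate stretches of the GRCm38 assembly. Trem2 (ENSMUSG00000023992) spans chr17:48346401-48354147 on the plus strand, and Tyrobp (ENSMUSG00000030579) spans chr7:30413760-30417585 on the plus strand. Axl (ENSMUSG00000002602) is at chr7:25757273-25788705 on the minus strand, Mertk (ENSMUSG00000014361) at chr2:128698956-128802894 on the plus strand, and Gas6 (ENSMUSG00000031451) at chr8:13465374-13494490 on the minus strand. Cd68 (ENSMUSG00000018774) is at chr11:69664213-69666153 on the minus strand, Lpl (ENSMUSG00000015568) at chr8:68880491-68907448 on the plus strand, and Itgax (ENSMUSG00000030789) at chr7:128129547-128150657 on the plus strand. Spp1 (ENSMUSG00000029304) is at chr5:104435118-104441050 and Gpnmb (ENSMUSG00000029816) at chr6:49036546-49070929, both on the plus strand. Spp1, Mertk and Gas6 overlap other annotated genes, so reads there could be shared. Those neighbours were low: Gm42793, inside Spp1, averaged at most 8.99 normalized counts in a population, Gm14011, antisense to Mertk, at most 15.3, and Tmem255b, at the end of Gas6, at most 3.73.

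RefSeq promoter windows of GRCm38.p6, from 250 bases before to 50 bases after a start site, were present for 8 members with 9 windows; Tyrobp and Lpl had none. They were searched on both strands for the core of the site bound by PU.1, the myeloid transcription factor (GAGGAA, read as TTCCTC on the other strand), and for the E-box CACGTG. The PU.1 core was in 4 of the 9 member windows, of Trem2, Cd68, Spp1 and Axl, and in 28.3% of all 32851 windows. CACGTG was in 0 of 9 member windows and in 7.15% of all windows. The 4 windows with the core are shown because they join a member nearly restricted to microglia, Trem2, with the member highest in mural cells, Axl. The 250 bases before each start are printed 5′ to 3′ on the gene's strand, with the core in capitals; Trem2 and Spp1 are on the plus strand, Cd68 and Axl on the minus strand.
Trem2 chr17:48346151-48346400: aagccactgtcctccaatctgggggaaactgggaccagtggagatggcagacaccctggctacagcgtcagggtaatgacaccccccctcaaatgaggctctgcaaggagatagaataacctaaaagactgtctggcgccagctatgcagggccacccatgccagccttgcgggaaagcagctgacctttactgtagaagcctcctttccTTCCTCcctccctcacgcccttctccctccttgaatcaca
Cd68 chr11:69666171-69666420: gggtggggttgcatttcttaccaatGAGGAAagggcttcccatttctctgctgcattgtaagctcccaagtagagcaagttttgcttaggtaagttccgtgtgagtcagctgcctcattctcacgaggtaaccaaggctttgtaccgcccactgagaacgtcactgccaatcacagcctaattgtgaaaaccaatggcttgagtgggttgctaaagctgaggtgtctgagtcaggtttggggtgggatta
Spp1 chr5:104434861-104435110: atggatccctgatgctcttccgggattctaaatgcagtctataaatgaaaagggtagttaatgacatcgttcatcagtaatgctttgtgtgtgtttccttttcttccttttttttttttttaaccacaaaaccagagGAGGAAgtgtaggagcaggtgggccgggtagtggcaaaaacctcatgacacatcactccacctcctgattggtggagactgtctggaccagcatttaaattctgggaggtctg
Axl chr7:25788734-25788983: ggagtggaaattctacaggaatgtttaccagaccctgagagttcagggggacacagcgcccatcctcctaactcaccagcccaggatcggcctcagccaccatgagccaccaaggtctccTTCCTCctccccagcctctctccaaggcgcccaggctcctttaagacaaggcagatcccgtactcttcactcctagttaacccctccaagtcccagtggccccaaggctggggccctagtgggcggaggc
In these windows the core began 40 bases before the start in Trem2, 130 in Axl, 225 in Cd68 and 113 in Spp1, and a second match in Cd68 lay past the start. A match is a string of letters and shows no binding.

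Bulk values are normalized counts, that is reads on a gene divided by 1 factor per library, and tests are limma on log2(normalized count + 1) over 19765 genes with a mean of at least 10, adjusted by Benjamini-Hochberg. Libraries held 17638358 to 98414914 reads on genes, and 1 read was worth 0.264 to 1.77 normalized counts. Microglia libraries carried the microglia marker list (16 genes, C1qa to Olfml3) at a summed 500403 to 532168 normalized counts, against at most 4094 in any other library. In a bulk sample, fewer cells of a type and less RNA per cell cannot be told apart. The border macrophage list (7 genes, Mrc1 and Lyve1 among them) summed to 30514 to 39998 in microglia, with Cd163 at 0 in Mi-340 and Mi-346, and the monocyte list (6 genes) to 2986, 2478 and 9150 in Mi-340, Mi-343 and Mi-346, with Chil3 at 0. The part of these cells in the values below was not tested.

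Microglia were compared with the mean of the log2 levels of the other 3 populations, so a gene called higher here may still lie below 1 of them. Of the 10 members, 9 were higher in microglia on that scale, where 23.4% of all genes tested were higher. None was lower, where 22.3% of all genes were. The same 9 rose over 10-fold by the fitted difference, against 8.27% of all genes, and the exception was Axl. Trem2, Tyrobp and Itgax, at 0 to 3 reads over the 9 other libraries, passed the filter only through microglia and had to differ, so these counts and the median are a description and support nothing. The median log2 difference was 6.93 over the members and -0.016 over all genes tested. In 8 of 10 members each microglia library lay above each of the 9 other libraries, which held for 11.5% of all genes; the exceptions were Axl and Gpnmb.

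**Figure D1:**
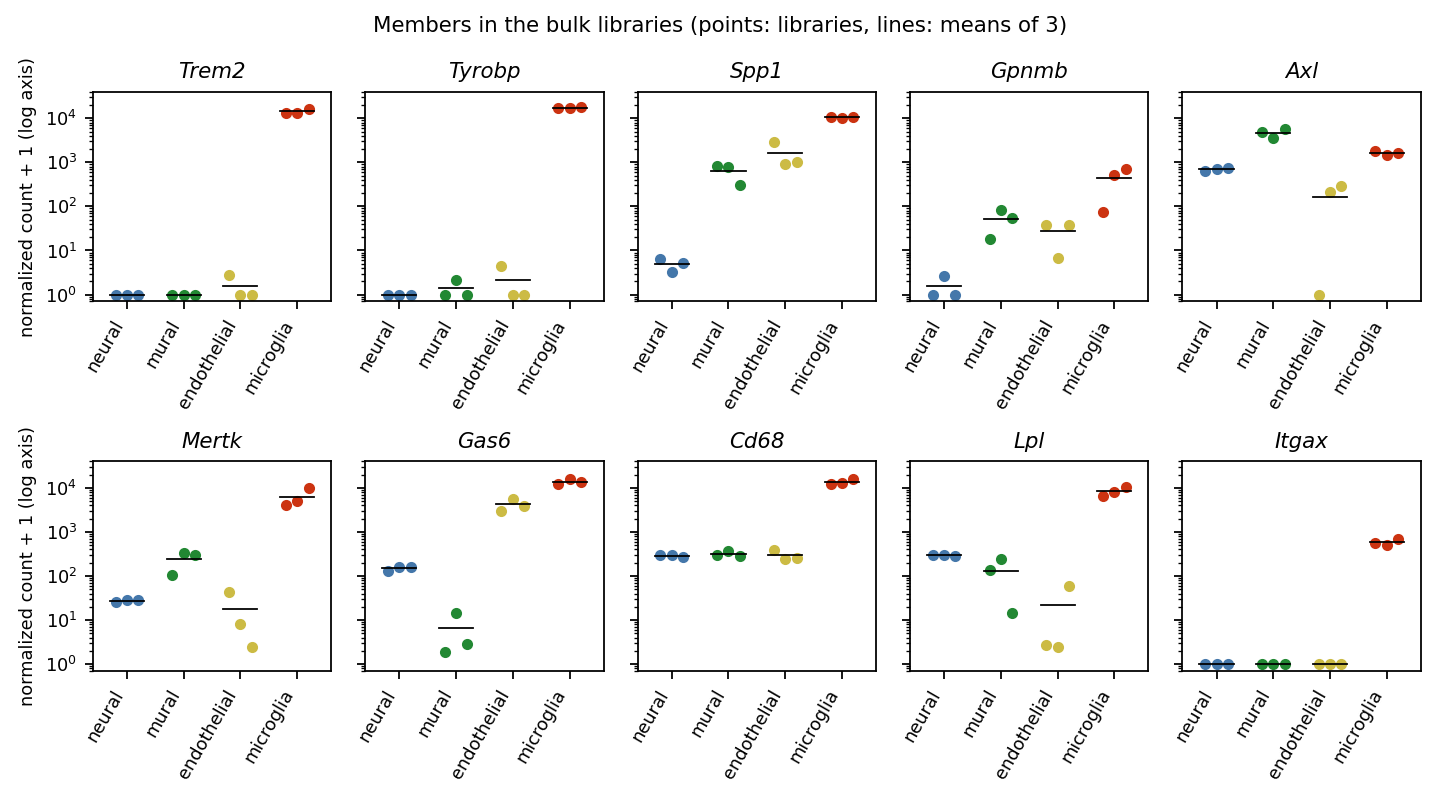
Normalized counts + 1 of the 10 genes in the 12 bulk libraries on a log axis, each point 1 library and each line a population mean. Trem2, Tyrobp and Itgax are near or at 0 outside microglia, whereas Axl is highest in the 3 mural libraries, from 3633 to 5749.

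Trem2 and its adaptor gene Tyrobp were nearly restricted to microglia. Trem2 stood at 13252, 13436 and 16408 normalized counts in Mi-340, Mi-343 and Mi-346, at 0 in every neural and mural library, and at 1.77, 0 and 0 in endothelial ones, where 1.77 is a single read. Its microglial mean of 14365 ± 1771 (SD, n = 3) was at least 6671-fold higher than in neural and at least 5706-fold higher than in mural cells, taking 3 reads per library as the floor. Against endothelial cells the ratio was 24322, with a 95% counting interval of 4365 to 960649. That interval pools the reads of the 3 endothelial libraries, whereas the floor allows 3 reads in each library and is the wider allowance. Tyrobp, the adaptor, stood at 16917, 16779 and 18491 in microglia, and the other 9 libraries together held 3 of its reads, 1 mural and 2 endothelial. It was at least 8078-fold higher than in neural cells. In both genes microglia were separated from the other populations without overlap. Each passed the filter on low values only through the microglia libraries, so no p-value is given. The microglia libraries themselves differed little, with the highest 1.24 times the lowest for Trem2 and 1.10 times for Tyrobp.

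The signalling chain below the receptor, a list of 16 further genes, had 15 higher in microglia than the mean of the other log2 levels, 0 lower and 1 not called, against 23.4% of all genes higher and 22.3% lower. Its median log2 difference was 4.56. Of these 15, Adam10, a membrane protease, had its highest mean in endothelial cells (13797 normalized counts, 10029 in microglia), and Grb2, a signalling adaptor, in neural cells (3451 against 3142). Vav1, a guanine nucleotide exchange factor, averaged 8167 normalized counts in microglia and at most 11.6 in another population. It and Hcst averaged under 10 outside microglia and passed the filter only through microglia, so their calls were fixed by the filter. Plcg2, the phospholipase that TREM2 signalling uses, was 8.59 higher (SE 0.40) on the log2 scale. Vav3, the member not called, differed by 1.68 with limma adjusted p = 0.14. Apoe, a lipid carrier that TREM2 binds, was 6.60 higher (SE 0.09).

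The TAM receptors and their ligand split over the populations. Axl was highest in mural cells, at 4862, 3633 and 5749 normalized counts, followed by microglia at 1790, 1487 and 1606. Neural libraries held 641, 705 and 734, and endothelial libraries 0, 207 and 285. No population overlapped another in Axl. The fitted difference between microglia and the mean of the others was 1.69 on the log2 scale (SE 1.33, 95% interval -1.24 to 4.63, limma adjusted p = 0.33), so no call was made. The spread behind this SE rests on Ec-340, which had 0 reads of Axl: without it the difference was 0.81 with adjusted p = 0.0029, an alternative chosen after seeing the data. That call is against the mean of the log2 levels, and the microglial mean of 1628 normalized counts was below the mural mean of 4748. In that fit Axl was also called lower in microglia than in mural cells, by a log2 difference of -1.52 (adjusted p = 0.00021), whereas with all 12 libraries the same -1.52 had adjusted p = 0.50. Without the first library of each population Axl was called lower than in mural cells (-1.56, adjusted p = 0.0093) and higher than in neural cells (1.10, adjusted p = 0.020). Mural cells exceeded endothelial cells in both tests run on Axl, since the log2 difference endothelial minus mural was -6.90 in bulk (limma adjusted p = 0.0091) and -4.09 in single cells (edgeR adjusted p = 1.7e-13). In bulk that call was lost without the second library of each population (adjusted p = 0.059) or without the third (adjusted p = 0.052).

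Mertk, the other TAM receptor here, was a microglial gene in the same libraries. It stood at 4053, 5138 and 9879 normalized counts in microglia, at 102, 324 and 305 in mural, at 25.4, 27.1 and 26.9 in neural, and at 42.5, 7.10 and 1.51 in endothelial cells. Microglia did not overlap the others, and the log2 difference was 7.26 (SE 0.73, limma adjusted p = 1.3e-05). Mi-346 was 2.44 times Mi-340, a wider spread than for Trem2, and the same library held the most monocyte markers (Ccr2 at 4333 against 1113 and 1067). Mural cells were above neural cells by 2.98 (adjusted p = 0.015), a call lost without the second libraries (adjusted p = 0.16) or the third (adjusted p = 0.060). Tyro3, which completes the TAM family, went the other way: it averaged 1176 normalized counts in neural cells and 1.58 in microglia, a log2 difference of -4.73 from the mean of the others (adjusted p = 0.0096).

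Gas6 was shared by microglia and endothelium and was nearly missing from mural cells. Microglia held 12434, 15824 and 13388 normalized counts, endothelial cells 2995, 5671 and 3945, neural cells 130, 155 and 161, and mural cells 0.87, 13.7 and 1.88. The 4 populations did not overlap. Endothelial cells exceeded mural cells by 9.89 on the log2 scale (SE 0.61, limma adjusted p = 1.2e-06) and neural cells by 4.77 (SE 0.61, adjusted p = 6.8e-05). Microglia were 3.30-fold above endothelial cells in the means, a log2 difference of 1.77 (SE 0.61, adjusted p = 0.048). That call was lost without the first libraries (adjusted p = 0.17), without the third (adjusted p = 0.24), without Ec-340 alone (adjusted p = 0.13), without the neural libraries (adjusted p = 0.10), without the low-value filter (adjusted p = 0.077) and after quantile normalization (adjusted p = 0.14). Mural cells, highest in the receptor Axl, were lowest in its ligand Gas6, and fell by 5.11 relative to neural cells (adjusted p = 4.2e-05).

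Other bridging ligands and receptors for dying cells were also spread over populations. Of 16 listed genes, 15 were tested, with 9 higher, 2 lower and 4 not called in microglia, and a median log2 difference of 1.29, against 23.4% of all genes higher and 22.3% lower. Of the 9, Pros1 and Itgav had their highest mean in mural cells, Scarb1 in endothelial and Lrp1 in neural cells. Cd36, a scavenger receptor, averaged 552 normalized counts in microglia and at most 7.13 in another population, and passed the filter only through microglia. Lgals3, a galactose-binding lectin, was 7.20 higher (SE 1.18). Mfge8, a secreted bridge between phosphatidylserine and integrins, was lower, by a log2 difference of -3.98 (SE 0.18), with a mean of 13638 normalized counts in mural cells and 292 in microglia. Of the engulfment machinery, 13 genes were tested with 7 higher, 3 lower and 3 not called, beside the same 23.4% and 22.3% of all genes. Rac2 and Dock2, a small GTPase and an exchange factor of blood cells, were 13.11 and 12.51 higher, but with Vav1 they are 3 genes that passed the filter only through microglia. Gulp1, an adaptor for engulfment receptors, and Dock1 were lower, by -7.05 and -1.17.

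**Figure D2:**
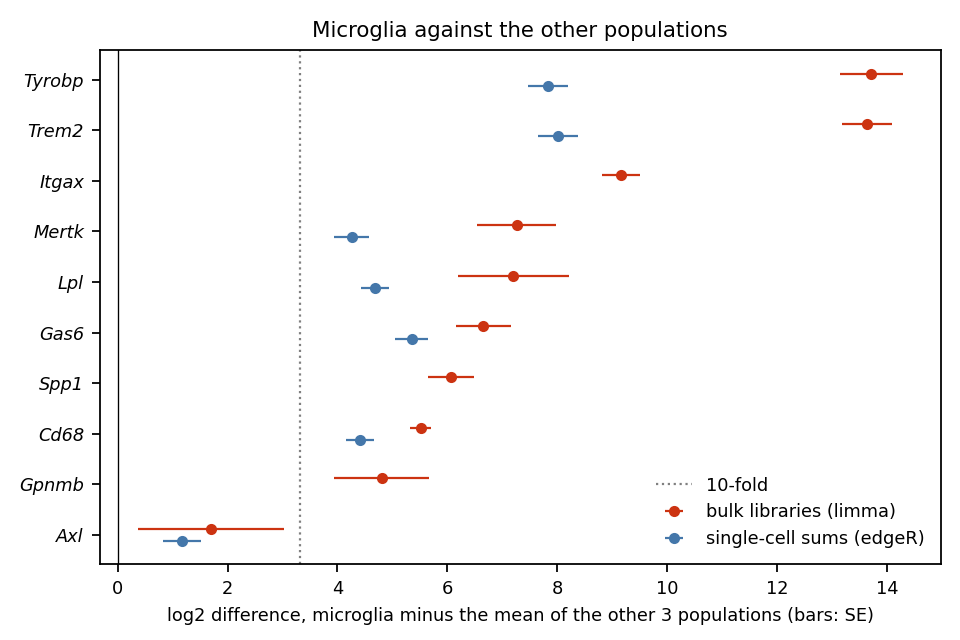
Log2 difference of each gene between microglia and the mean of the other 3 populations or gates, with bars of 1 SE, from the limma fit of bulk libraries and the edgeR fit of single-cell sums. Of the 10 bulk differences 9 lie above 4, and Axl, at 1.69, is the lowest in bulk and at 1.16 the lowest in single cells.

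Cd68 and Lpl, the lysosomal and lipid genes, had a base level outside microglia. Cd68 stood at 12155, 13168 and 15979 normalized counts in microglia and between 248 and 390 in all 9 other libraries. Microglia were 47.6-fold above neural, 43.1-fold above mural and 46.2-fold above endothelial cells, with a log2 difference of 5.51 (SE 0.18, limma adjusted p = 4.4e-09). The other 3 populations overlapped in Cd68, and their differences from each other were between -0.12 and 0.14 with no call; for endothelial minus mural cells the 95% interval was -0.62 to 0.37. After quantile normalization Cd68 was called higher in mural than in neural cells, by 0.70 (adjusted p = 0.029). Lpl stood at 6418, 7995 and 10485 in microglia, at 300.5, 303 and 284 in neural, at 132, 240 and 13.1 in mural, and at 1.77, 1.42 and 58.8 in endothelial cells. Neural libraries were the tightest for Lpl and exceeded endothelial ones, the log2 difference endothelial minus neural being -5.33 (adjusted p = 0.0035). That call was lost without the first libraries (adjusted p = 0.078) or the second (adjusted p = 0.059), and in single cells the same difference was -0.19 (edgeR adjusted p = 0.81). Microglia exceeded neural cells in Lpl by 4.78 (adjusted p = 0.0062), a call lost without the first libraries (adjusted p = 0.060).

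Itgax was at 0 in each of the 9 other libraries and at 547, 499 and 689 normalized counts in microglia. It was at least 269-fold higher than in neural, at least 230-fold higher than in mural and at least 123-fold higher than in endothelial cells. With 0 reads elsewhere, it passed the filter on low values only through microglia, and no p-value is given.

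Spp1 had a high and even level in bulk microglia, at 10917, 10069 and 10603 normalized counts, the highest 1.08 times the lowest. The other populations differed widely: endothelial cells held 2895, 930 and 992, mural cells 842, 782 and 307, and neural cells 5.34, 2.22 and 4.23. Mural and endothelial cells did not overlap, yet their difference of 1.24 (SE 0.50) was not called (limma adjusted p = 0.092). Endothelial cells were above neural cells by 8.19 (SE 0.50) and mural cells above neural cells by 6.95 (SE 0.50), with adjusted p of 3.1e-07 and 9.9e-07. Microglia exceeded endothelial cells by 2.92 (adjusted p = 0.0010).

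Gpnmb had the smallest difference of the 9 called members and varied most among microglia libraries. Its microglia libraries held 73.7, 525 and 710 normalized counts, a 9.63-fold range, and Mi-340 lay below Mu-343. Mural cells held 17.0, 81.0 and 52.6, endothelial cells 37.2, 5.68 and 37.7, and neural cells 0, 1.66 and 0. The log2 difference between microglia and the rest was 4.81 (SE 0.87, limma adjusted p = 0.00096), whereas against mural cells alone it was 2.82 (adjusted p = 0.057). The difference from mural cells was called with a pseudocount of 8 (2.62, adjusted p = 0.026) and after quantile normalization (adjusted p = 0.037). Melanocyte markers, another known source of Gpnmb, summed to 24.96, 26.1 and 65.5 in the microglia libraries, with Tyrp1 at 0; their part was not tested.

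Counting every pair of populations, the members called in either direction were 9 of 10 for microglia and neural cells (59.8% of all genes), 8 for microglia and mural cells (38.0%) and 10 for microglia and endothelial cells (32.4%). Away from microglia they were 5 for endothelial and neural cells (57.7% of all genes), 4 for mural and neural cells (54.6%) and 3 for endothelial and mural cells (27.8%). Trem2, Tyrobp and Itgax had few or no reads outside microglia. They had to be called in the microglia pairs and could not be called in the others, so these counts support nothing. Between endothelial and neural cells Axl lost its call without the filter on low values (adjusted p = 0.071), after quantile normalization (adjusted p = 0.073), with edgeR on recovered reads (adjusted p = 0.065) and without the second or the third libraries (adjusted p = 0.10 and 0.090). Gpnmb lost it there with a pseudocount of 8 (adjusted p = 0.075) and without the third libraries (adjusted p = 0.11), and Mertk gained one without the first libraries (-2.64, adjusted p = 0.022) or Ec-340 alone (-2.61, adjusted p = 0.0081). Between mural and neural cells Axl, not called with all libraries, was called with a pseudocount of 8 (2.74, adjusted p = 0.040), with edgeR (2.80, adjusted p = 0.022), without the first libraries (2.67, adjusted p = 0.00087) and without Ec-340 (2.75, adjusted p = 2.7e-06). The pairs share libraries, so their counts are not independent. Between microglia and endothelial cells, Axl and Gpnmb each lost the call without the second libraries (adjusted p = 0.091 and 0.18) or the third (adjusted p = 0.079 and 0.13), and Axl also without the neural libraries (adjusted p = 0.073). Between endothelial and mural cells the Mertk difference of -4.50 (adjusted p = 0.0034) lost its call in the same 2 cases (adjusted p = 0.095 and 0.060), as did Axl. Lpl gained a call there without the third libraries (-6.11, adjusted p = 0.00091), which left 1 member called without the second libraries and 2 without the third.

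Levels of different members can be compared only per length, here as recovered reads per kilobase of annotated exon, scaled to the reads on genes (RPKM). In bulk microglia Tyrobp was highest at 800 ± 91.6 (SD, n = 3), followed by Cd68 at 337 ± 69.9, Spp1 at 195 ± 11.7 and Gas6 at 167 ± 27.0. Trem2 came next at 89.3 ± 16.4, then Mertk at 45.7 ± 24.97 and Lpl at 24.5 ± 7.58. Axl at 9.87 ± 0.64, Itgax at 3.70 ± 0.82 and Gpnmb at 2.12 ± 1.64 were lowest. Spp1 and Gas6 overlapped in this order, Mertk overlapped Lpl, and Gpnmb overlapped Itgax. The place of Trem2 depends on its gene model: all annotated exons cover 4946 bases, of which the longest protein-coding transcript has 1088, and on that length Trem2 stood at 406 ± 74.7, second after Tyrobp and overlapping Cd68. Lpl rose to 62.4 ± 19.3 on its longest transcript of 4115 bases, above Mertk at 46.1 ± 25.2, and Gpnmb to 3.73 ± 2.89. The coding-transcript length was added after seeing the data.

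**Figure D3:**
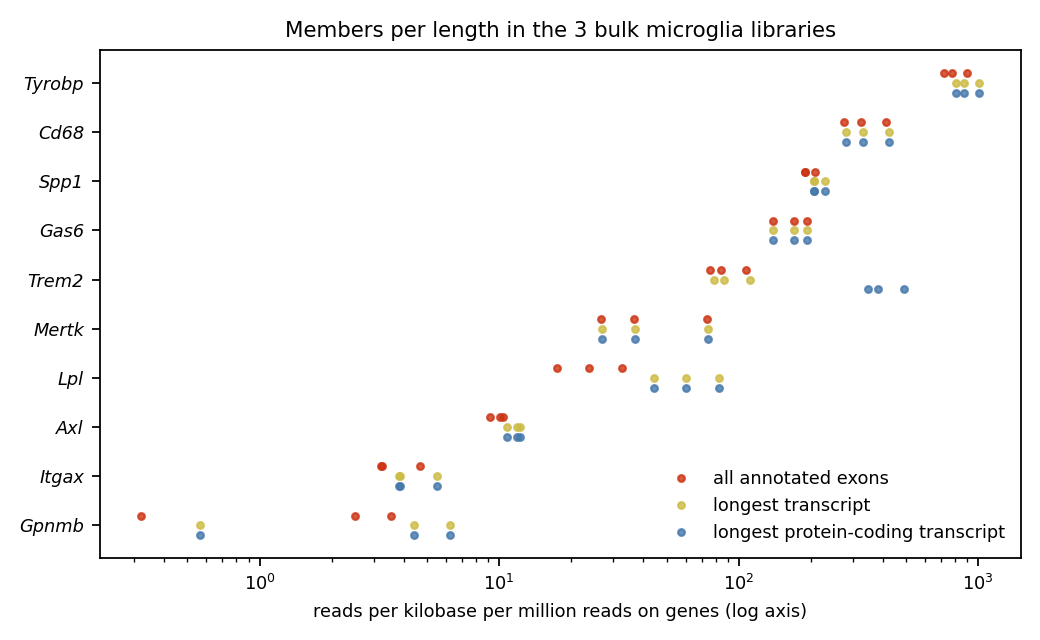
Level per length of the 10 genes in the 3 bulk microglia libraries, in RPKM on a log axis, for the length of all annotated exons, of the longest transcript and of the longest protein-coding transcript, each point 1 library. Tyrobp leads under each length, and Trem2 moves from a mean of 89.3 to 406 on its coding transcript.

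Genes with the pattern most like each member were ranked by Pearson's r of log2(normalized count + 1) over the 12 libraries, which fall into 4 populations. Cd68, Trem2 and Tyrobp were close to each other: Tyrobp and Trem2 were among the 3 nearest genes of Cd68, both at r = 0.998. Trem2 was nearest to Ms4a6b, Tifab and Cd84 (r = 0.9998, 0.9995 and 0.9995) and Tyrobp to Rac2 (0.999), Ms4a6b and Tifab (both 0.998), all of them at or near 0 outside microglia. Itgax was nearest to Cd69, Ms4a6c and Stfa1 (r = 0.99999, 0.99999 and 0.99997), which were at 0 in the same 9 libraries. Gas6 was nearest to Lyl1 (0.987), then Brf1 and Gm13241 (both 0.976), with Lyl1 at a mean of 1437 normalized counts in endothelial and 3296 in microglia. Axl was nearest to Inpp5b (0.978), Ifit2 (0.977) and Csgalnact2 (0.973), each highest in mural cells. Spp1 was nearest to Dazap2 (0.990), Casp8 and B2m (both 0.989), and Gpnmb to Mir22hg (0.972), Hsp90b1 (0.958) and Atp6v1d (0.954). Mertk was nearest to Rgs10 (0.977), Ppt1 (0.9746) and Gng10 (0.970), and Lpl to Vrk1 (0.966), Mlec (0.948) and Ifrd1 (0.942).

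In single cells, molecules were counted by identifiers in cells over 1500 transcripts: 128 microglia-gate, 225 endothelial, 210 mural and 123 neural cells. Sums per plate and gate were tested with edgeR. Of the 10 members, 7 passed the filter on low counts, and each was called higher in the microglia gate than the mean of the other gates' log2 levels, where 22.2% of the 9281 genes tested were. Over 10-fold higher were 6 of them, beside 4.61% of all genes. A gene such as Trem2 could pass the filter only through the microglia gate, so these counts are a description and support nothing. The log2 differences were 8.01 for Trem2 (SE 0.37), 7.83 for Tyrobp (SE 0.36), 5.35 for Gas6 (SE 0.31), 4.68 for Lpl (SE 0.26), 4.41 for Cd68 (SE 0.26) and 4.26 for Mertk (SE 0.32). Axl followed at 1.16 (SE 0.35, edgeR adjusted p = 0.0045), and this call was lost with DESeq2 (0.88, adjusted p = 0.28), without plate 1 (1.15, adjusted p = 0.13) and without plate 2 (0.74, adjusted p = 0.40). Against the mural gate alone Axl was lower in the microglia gate, by a log2 difference of -2.01 (SE 0.31, adjusted p = 2.0e-07). Spp1, Gpnmb and Itgax did not pass the filter. For Spp1, 427 identifiers were counted in the microglia gate, most of them on plate 1.

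Most microglia-gate cells held transcripts of both Trem2 and Tyrobp. A transcript of Tyrobp was found in 126 of 128 cells (98.4%, exact 95% interval 94.5% to 99.8%) and of Trem2 in 115 (89.8%, 83.3% to 94.5%), with both in 113. In the other gates Trem2 was in 0 of 123 neural cells (exact 95% interval up to 2.95% of cells with a detected transcript), in 2 of 210 mural cells and in 5 of 225 endothelial cells. Of the 11 Trem2 transcripts in endothelial-gate cells, 9 came from 4 cells with at least 5 of the 16 microglia markers, as did 21 of the 27 Tyrobp transcripts. Microglia-gate cells were deeper, with a median of 10761 transcripts against 7717 in neural, 6885 in mural and 6408 in endothelial cells. After thinning every cell to 1500 transcripts, Tyrobp remained in 69.5% and Trem2 in 45.3% of microglia-gate cells, and neither was above 2.67% in another gate.

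**Figure D4:**
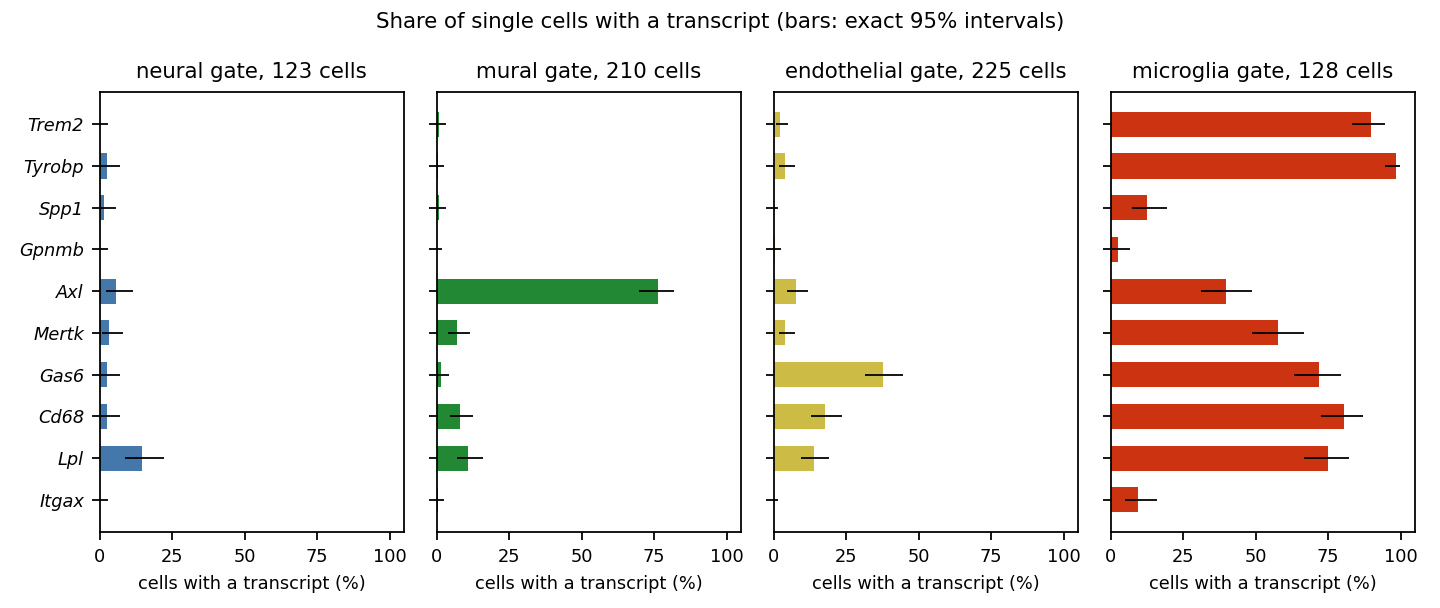
Percent of cells in each sort gate with at least 1 transcript of each gene, without thinning, with lines for exact 95% binomial intervals that cover counting error only. Tyrobp reaches 98.4% of microglia-gate cells, and Axl is the gene with its highest share in the mural gate, at 76.2%.

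Axl marked most mural-gate cells. It was in 160 of 210 mural cells (76.2%, 69.8% to 81.8%) at 334 CPM (transcripts per 1000000 of the pooled cells), against 51 of 128 microglia-gate cells (39.8%, 31.3% to 48.9%) at 65.0 CPM, although the mural cells were shallower. Thinned, the shares were 39.0% and 9.38%. Endothelial cells held it in 7.56% and neural cells in 5.69%. Plate 4 of the knockout had Axl in 264 of 337 cells (78.3%) at 329 CPM, and the mural gate of plates 1 to 3 ranged from 293 to 367 CPM. These cells are not alike: plate 4 was taken whole, with neural markers at 1933 CPM against 815 in the mural gate.

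Gas6 was in 92 of 128 microglia-gate cells (71.9%) at 334 CPM and in 85 of 225 endothelial cells (37.8%, 31.4% to 44.5%) at 100.3 CPM. It was in 3 of 210 mural and 3 of 123 neural cells. Leaving out the 4 endothelial-gate cells with microglia markers, 83 of 221 held Gas6 (37.6%). Of those 221 cells 36 also held a transcript of the microglia gene C1qb, and the part of microglial RNA in the Gas6 share was not tested. Endothelial cells exceeded mural cells by 5.60 on the log2 scale (SE 0.58, edgeR adjusted p = 7.5e-12), in the same direction as in bulk. Among microglia-gate cells both Gas6 and Mertk were found in 61, both Gas6 and Axl in 40, and both Axl and Mertk in 31.

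Cd68 was in 103 microglia-gate cells (80.5%), Lpl in 96 (75.0%) and Mertk in 74 (57.8%). Cd68 was in 17.8% of endothelial, 8.10% of mural and 2.44% of neural cells, and endothelial cells were above neural cells by 2.99 on the log2 scale (SE 0.63, edgeR adjusted p = 8.4e-05), although in bulk these 2 populations differed by 0.01. The microglia markers moved the same way, at 382 CPM in endothelial-gate and 84.9 in neural cells. The 4 endothelial-gate cells with microglia markers held 12 of the 55 Cd68 transcripts of that gate, and their part was not tested. Lpl was at like shares in the other gates, 14.6% in neural, 13.8% in endothelial and 10.95% in mural cells. Itgax was in 12 of 128 microglia-gate cells (9.38%) and in 1 of the 558 others, and Gpnmb in 3 (2.34%) and 1. Most microglia-gate cells, 95 of 128, held between 5 and 7 of the 10 members, and none held more than 8.

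Spp1 was carried by few cells. It was in 16 of 128 microglia-gate cells (12.5%, 7.32% to 19.5%), of which 15 were among the 64 cells of plate 1, 1 among the 58 of plate 2 and 0 among the 6 of plate 3. The median depth was nearly the same on plates 1 and 2, at 10878 and 10836 transcripts. Of the 427 Spp1 identifiers counted, 342 (80.1%) were in a single cell of 16775 transcripts, and 8 of the 16 cells held 1 each. With that cell the gate stood at 323 CPM, and without it at 62.8 CPM. No endothelial-gate cell of 225 held Spp1 (exact 95% interval up to 1.63% of cells with a detected transcript), and mural and neural cells held 2 each, whereas the bulk endothelial mean was 1606 normalized counts. Bulk endothelial libraries held at most 1721 summed microglia marker counts, with Itgam and Fcrls at 0; the source of Spp1 there was not tested.

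Cells with Spp1 were described on plate 1, where 15 had it and 49 did not; they were picked by Spp1, so no test is given. Lpl stood at 1484 CPM in cells with Spp1 and 480 in cells without. Igf1, a growth factor of microglia near axon tracts, was in 8 of 15 against 9 of 49 cells, and Cd9, a tetraspanin, stood at 670 against 250 CPM. P2ry12 and Siglech, markers of homeostatic microglia, stood at 714 against 1236 and at 200.4 against 426 CPM. Other genes of the disease-associated list went both ways. Fabp5 stood at 250.5 against 71.7, Cd63 at 996 against 722, Ctsb at 5730.0 against 3779 and Ccl3 at 751 against 540.4 CPM. Clec7a stood at 43.8 against 75.5, Ccl4 at 927 against 1294 and Apoe at 5724 against 7552 CPM, and Lgals3 was nearly level at 37.6 against 36.8 CPM. Trem2 stood at 363 against 323 CPM. Over all plates, leaving out the cell with 342 Spp1 identifiers, Lpl still stood at 1218 CPM in the 15 other cells, against 432 CPM in the 112 cells without Spp1. In the same comparison Fabp5 stood at 127 against 96.3 CPM, Igf1 at 100.4 against 47.3, Cd9 at 556 against 311, Cd63 at 964 against 647 and Ccl3 at 676 against 586. Without that cell, 19 of the 40 Fabp5 transcripts of cells with Spp1 were left.

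Knockout plate 5 held 195 cells over 1500 transcripts, clustered without the 10 members. One cluster of 40 cells had microglia markers among its 10 leading genes, such as P2ry12, Siglech, Olfml3 and Gpr34, and is called microglia-like. Another of 39 cells was led by Pf4, F13a1, Lyve1, H2-Aa and Mrc1 with no microglia marker among its 10 leading genes, and was left unnamed. The remaining 116 cells were neural-like. Kat8 itself stood at 19.6 CPM in the microglia-like cells, from 7 transcripts, and at 10.4 CPM over plate 5, against 15.8, 17.7 and 17.5 CPM on plates 1, 2 and 3. In the microglia gate alone Kat8 stood at 10.4, 15.5 and 59.1 CPM on plates 1, 2 and 3, from 7, 10 and 3 transcripts. Since the deleted part is not given, reads from the 3′ end of Kat8 may not check the knockout, and the plate is described by its label.

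There is 1 plate of knockout microglia-like cells, so no test of genotype was made and intervals cover counting error only. Microglia-like cells of plate 5 held Trem2 in 33 of 40 cells (82.5%) and Tyrobp in 36 (90.0%), against 89.8% and 98.4% in the microglia gate. Shares depend on depth, and the median was 8162 identifiers in these cells and 10761 transcripts in the microglia gate. Tyrobp stood at 813 CPM (exact Poisson 95% interval 721 to 911), inside the 414 to 909 CPM of the microglia gate on plates 1 to 3. Of the 10 members 6 lay inside that range: Tyrobp, Spp1, Mertk, Gas6, Lpl and Itgax. The upper end for Spp1, 647 CPM on plate 1, includes a single cell with 342 identifiers. Without that cell the gate stood at 62.8 CPM over all plates, below the 160 CPM of these microglia-like cells. Itgax at 19.6 CPM lay inside by an upper end of 19.7 CPM, from plate 3. Trem2 at 339 CPM lay just above 276 to 333, Axl at 86.9 above 51.8 to 78.8 and Cd68 at 339 (281 to 405) above 218 to 256, whereas Gpnmb had 0 transcripts. The range of 3 plates includes plate 3 with 6 cells, and genotype and plate cannot be told apart.

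**Figure D5:**
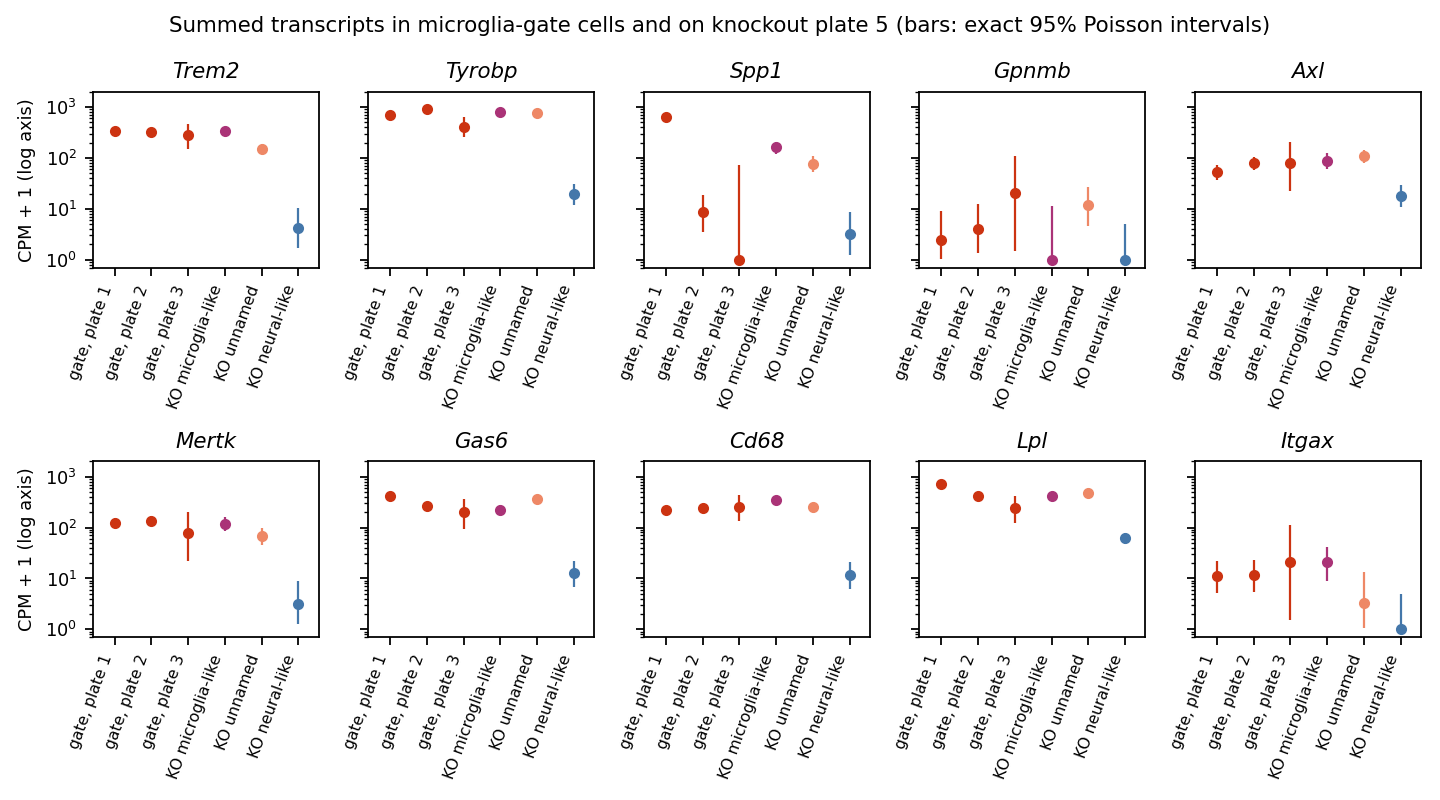
Transcript level (CPM + 1) of each gene in the microglia gate of plates 1, 2 and 3 and in the microglia-like, unnamed and neural-like cells of knockout plate 5, on a log axis with exact Poisson 95% intervals. The gate's Spp1 runs from 0 to 647 CPM between plates, with 342 identifiers of plate 1 in a single cell. The unnamed cluster is lower than the microglia-like cells for Trem2, at 149.7 against 339.

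The unnamed cluster held the phagocytic genes in another mix. Tyrobp stood at 779 CPM in it and 813 in the microglia-like cells, Lpl at 478 and 421, and Axl at 107 and 86.9. Trem2 stood at 149.7 CPM (116 to 190.1) against 339 (281 to 405). By library of the plate, Trem2 was at 85.5 against 313 in library 5, at 149.98 against 358 in library 6, at 196 against 164 in library 7 and at 280 against 454 in library 8. Mertk stood at 67.0 against 118 and Itgax at 2.23 against 19.6, whereas Gas6 stood at 365 against 221. The summed border macrophage list was 2245 CPM in the unnamed cluster and 275 in the microglia-like cells, and the microglia list 8145 and 14575. Neural-like cells of the plate stood at 3.24 CPM for Trem2, 18.3 for Tyrobp, 11.9 for Gas6, 10.8 for Cd68 and 60.4 for Lpl. The part of free RNA in these values was not tested.

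The receptor and disease-associated lists had all their genes called higher in bulk microglia. All 12 Fc, complement and scavenger receptors tested were higher in microglia, with a median log2 difference of 10.73, led by the Fc receptor Fcgr3 at 14.49, followed by Itgam, the sort marker CD11b, at 11.80. Of these 12, 7 averaged under 10 normalized counts outside microglia and passed the filter only through microglia, Fcgr3 and Itgam among them. All 22 further genes of disease-associated or axon-tract microglia were higher than the mean of the other log2 levels, although Cd63 and Lgals1 had their highest mean in mural and Fabp5 in neural cells. Their median was 4.79, led by the chemokine Ccl4 at 13.96 and the lysozyme Lyz2 at 13.002, which with Cst7 and Clec7a are the 4 of 22 that passed the filter only through microglia. Both counts are a description and support nothing, and 23.4% of all genes were higher. Many of these genes are at or near 0 reads outside microglia, so fitted differences and list medians there depend on the pseudocount and are no bounds.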

How the data were processed

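RNA from sorted E14.5 mouse brain cells was measured in 12 bulk and 23 single-cell libraries. The authors deposited bulk normalized counts (a signal per gene), made with STAR, featureCounts and DESeq2 on mm10 as the submitters' notes name them without roles; whole reads could be recovered from 100% of values up to 100 reads (within 0.01). The deposited single-cell tables hold expected counts of identifiers per gene and well (other unit, mCEL-Seq2; BWA 0.6.2-r126 is named), from 192 well barcodes that every library reuses by design.

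The bulk fit used limma 3.58.1 (R 4.3.3) with a pseudocount of 1 on the log2 scale, genes with a mean of at least 10 and Benjamini-Hochberg at 0.05. Single-cell expected counts were summed per plate and gate, rounded and tested with edgeR 4.0.16; of 994 wells with 1 of the 4 gates 686 passed 1500 transcripts. DESeq2 1.42.0 was an alternative. No doublet caller was run on sorted wells. Plate 5 was clustered with scanpy 1.11.5 (2000 variable genes, 30 components, Leiden resolution 1). PCR copies, replicate structure and free RNA are outside the counting intervals. The tests recovered 100 of 100 simulated 4-fold changes in the bulk fit and 99 of 100 in the single-cell fit. The simulation gave every gene the same dispersion between libraries. It therefore does not give the power for genes with a wider spread, such as Axl.

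Named genes were the 10 members, the 2 strongest rises and falls of each pathway list, the 3 nearest genes of each member, Kat8 and the markers; genes named beyond these were chosen after their values were seen. Members and lists were chosen with earlier results of these data known. The library titled P3_11 was read with the gates listed for library 12 of plate 3.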

Additional observations from a re-analysis of the deposited data

Results flagged for a closer look

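In the microglia-like cells of knockout plate 5, library 7 stood apart from the other 3 libraries for 2 of the 10 genes. Gas6 stood at 411 CPM in library 7, against 207, 225 and 212 CPM in libraries 5, 6 and 8. Cd68 stood at 986 CPM in library 7, against 319, 302 and 364 CPM. In both, the gap to the nearest library exceeded Dixon's critical value at the 95% level for 4 values. Library 7 holds 3 microglia-like cells. Chance gives such a gap in about 1 of 20 groups of 4 values with equal spread, which values from few cells need not have. The gap was looked for in every member but Gpnmb.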

How the results depend on the processing

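The 9 members called higher in bulk microglia were 9 under each alternative listed in advance and 10 without Ec-340, which was left out after seeing the data. The tenth was Axl, above the mean of the log2 levels but below mural cells. The count of genes higher was 4621 and moved to 3080 without the neural libraries, and the count lower moved from 4406 to 2795. With pseudocount 8 the genes over 10-fold higher fell from 1634 to 1002. In single cells the genes higher were 2056, 1180 with DESeq2 and 883 to 2410 when 1 plate was left out; genes lower were 1970, and 803 to 2352 without 1 plate. Without the low-count filter 786 genes instead of 428 were over 10-fold higher. Leaving out 1 library number gave 3 to 5 members called between endothelial and neural cells and 1 to 3 between endothelial and mural cells. Thinned to 1500 transcripts, 1 member instead of 6 was in at least 50% of microglia-gate cells. The cause of these shifts was not tested, apart from fewer libraries, transcripts or genes by construction.

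Mean correlations of deviations between same-numbered libraries of different populations were -0.022 to 0.037. With 3 libraries per population, such values cannot show whether same-numbered libraries came from the same brain. The sources used here do not tie a number to a brain. With the replicate block 9 members and 4399 genes were higher in bulk, and 2154 genes in single cells, and no bulk call of a member changed in any comparison. The edgeR test on recovered reads called 4606 genes higher. Few single cells held Gpnmb, Itgax or Spp1, and the part of single-cell depth in this was not tested. Spp1 was uneven between plates of nearly the same median depth.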
